A study of Mus musculus with 6 samples.

Results

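Mouse embryonic fibroblasts (MEFs) carrying a mutant Clock gene were compared with wild type MEFs, both after a mock transfection. The comparison rests on 2 of the 6 arrays of the series, those whose titles name the Clk/Clk genotype or the wild type together with mock. MEFs are connective tissue cells grown out of embryos, here of the ICR strain in a serum-supplemented culture medium. The labels write the mutant genotype as Clk/Clk and the design text calls these cells Clock mutant, but the allele is not named. The other 4 arrays hold mock Per2m/m cells and cells of all 3 genotypes that received a vector expressing H-Ras and SV40T, called transfected below. Each genotype and treatment was measured on 1 array, and the number of embryos or cultures behind an array is not stated. No difference below therefore has a replicate or a test, and a genotype difference cannot be told apart from a difference between 2 cultures.

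In a mammalian cell the circadian clock runs on a feedback loop. CLOCK and BMAL1 (gene Arntl) bind E-box sequences and switch on the Per and Cry genes, whose proteins return to inhibit them, while REV-ERB and ROR receptors (Nr1d and Ror genes) set the level of Bmal1. Fibroblasts keep such a clock in culture, although cells that have not been synchronised run out of phase with each other. Fibroblasts also answer interferon: receptor-bound JAK kinases activate STAT factors, which join IRF9 and bind interferon response elements at antiviral genes.

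Values are levels, that is log2 of the processed Cy3 signal minus the array's 75th percentile, and a ratio is the Clk/Clk level minus the wild type level on mock arrays unless stated. A ratio was taken only where the brighter array was well above background. Of 15768 genes so measured, 3544 (22.5%) lay at least 2-fold apart, 1729 (11.0%) higher and 1815 (11.5%) lower in Clk/Clk cells. These shares are the background for every list below. At least 4-fold apart were 1373 genes (8.71%), 700 higher (4.44%) and 673 lower (4.27%). The median ratio of all genes was -0.10 and its SD 1.26. Across the 14281 genes well above background on both arrays, the arrays correlated with r of 0.947. Repeated spots of a probe gave a spread of 0.08 for a ratio, which covers spot noise only. A gene that was not well above background on 1 of the arrays has only a bound, written as at least N-fold. Of the 2-fold calls 454 higher and 608 lower genes were of that kind, and the bound itself reached 2-fold for 454 and 294 of them. The lowest well-measured level was -5.76 on the wild type and -4.62 on the Clk/Clk array. Every higher call had to reach 2-fold for that reason, so these counts do not show firmer higher calls.

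**Figure D1:**
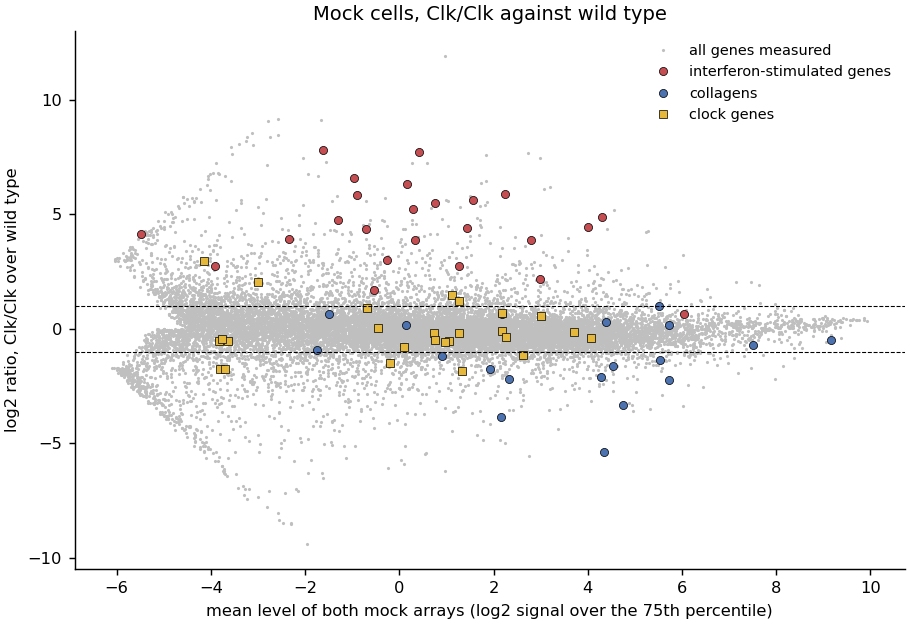
Log2 ratio of each gene (Clk/Clk over wild type, vertical axis) against its mean level on both mock arrays (horizontal axis, log2 signal over the 75th percentile), with the measured ratio also where 1 array was dim. The dashed lines mark 2-fold. Interferon-stimulated genes (red) lie high above the cloud, 10 of 19 collagens (blue) lie below the lower line, and the clock genes (yellow) stay mostly within or near the lines.

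Clock genes differed by less than the interferon genes described further on. Of 5 measured activators 2 were at least 2-fold higher and 0 lower, of 11 repressors 0 were higher and 3 lower, and of 10 output factors 2 were higher and 2 lower. The repressors lay on 1 side: 10 of 11 had a ratio below 0, with a median of -0.48 (-0.81 to -0.27 over the scalings tried), against -0.10 for all genes. The median of the activators was 0.04 and turned to -0.29 when arrays were scaled to their median. The 12 kinases and ligases that set the stability of PER and CRY proteins had a median of -0.33, and 0 of them were 2-fold apart.

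Among the activators, Clock itself had a level of 0.49 on the wild type and -0.30 on the Clk/Clk array, a ratio of -0.79. Its probe lies at chr5:76641377-76641436 (mm9). Because the altered part of the gene is not stated, this value does not check the genotype label. Arntl, the gene of BMAL1, had levels of 1.31 and 0.78, a ratio of -0.53. Arntl2, the paralogue of Arntl that can pair with CLOCK in its place, had levels of 0.38 and 1.87 and was 2.82-fold higher. Rorb, a ROR receptor best known from brain and retina, was 4.15-fold higher at a low level, with -4.04 against -1.98. Rora, the widely expressed member of that family, had almost equal levels of -0.48 and -0.44, and its sign changed with the scaling. A dimmer probe of Rora gave a ratio of -0.54.

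The PER and CRY genes encode the inhibitors of CLOCK and BMAL1. By the brightest probe of each, Per1 alone was on the higher side, with levels of 1.83 and 2.53 and a ratio of 0.70. Per2 had levels of -3.37 and -3.91, and Cry1 of -3.56 and -4.10. Both were dim on both arrays but well above background, with ratios of -0.54 and -0.55. Per3, a weaker PER family member, was at least 3.26-fold lower, at -2.92 against a Clk/Clk signal that was not well above background. Cry2 differed by -0.10, a sign that turned under other scalings, and its other probe gave 0.42. Nr1d1, which encodes the repressor REV-ERB-alpha, had levels of 0.56 and -0.95 and was 2.85-fold lower, while its paralogue Nr1d2 differed by -0.19. Ciart, a clock-controlled inhibitor of CLOCK and BMAL1, was at least 3.33-fold lower, from -2.83. Bhlhe40 and Bhlhe41 (the DEC repressors, which compete for E-boxes) had ratios of -0.48 and -0.44, and Cipc, a CLOCK-interacting inhibitor, -0.37.

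Output factors went both ways. Dbp, a PAR-bZIP activator that is a classical E-box target, had levels of 3.20 and 2.04 and was 2.24-fold lower. Klf10, a zinc finger factor under both clock and TGF-beta control, was 3.53-fold lower, at 2.23 against 0.41. Hlf, another PAR-bZIP gene, went the other way and was at least 7.78-fold higher, well above background only in Clk/Clk cells at -2.67. Nampt, the enzyme that recycles NAD, had levels of 0.67 and 1.88 and was 2.32-fold higher. Between these lay Usp2 (a deubiquitinase) at 0.91, Nfil3 (a repressor that opposes DBP) at 0.58, Tef at -0.40, Wee1 (a mitotic kinase) at -0.57, Klf9 at -0.19 and Noct at -0.12, the last with a sign that changed under other scalings. The 18 measured E-box targets, most of them already named, had a median of -0.46 with 14 below 0. Of 5 targets of REV-ERB and ROR 1 was at least 2-fold lower and 0 higher, with a median of -0.55.

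**Figure D2:**
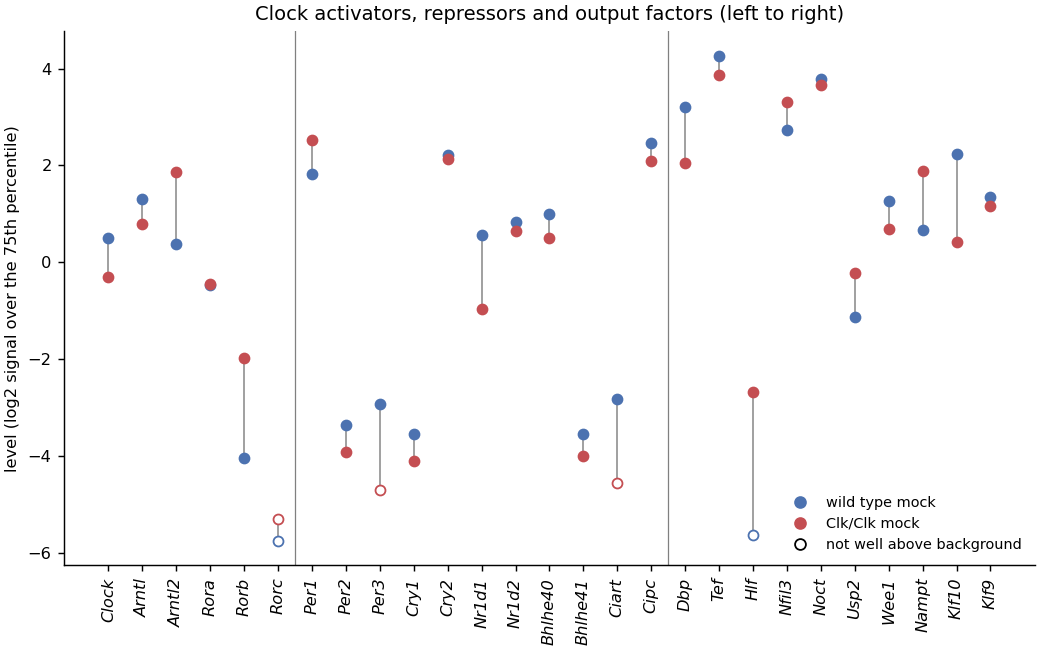
Levels (vertical axis, log2 signal over the 75th percentile) of clock activators, repressors and output factors on the wild type (blue) and Clk/Clk (red) mock arrays, joined by a line for each gene, with open circles where the signal was not well above background. The red point lies below the blue one for 10 of 11 repressors, and the longest lines belong to Hlf, Rorb, Klf10, Ciart and Per3.

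In the transfected pair, which shares no array with the mock pair, Clock (-0.76), Arntl (-0.62), Per3 (-1.14), Ciart (-1.37), Klf10 (-1.57), Arntl2 (0.88) and Rorb (1.54) had ratios of the same sign. Nr1d1 had 0.11 and Dbp 0.41 there, against -1.51 and -1.16 on the mock arrays, so neither was lower in the transfected pair. Nampt had -0.34 there against 1.22, and Hlf 0.58 against 2.96. The repressor list had a transfected median of -0.04, with 4 of 11 at least 2-fold lower and 1 higher. Per2 and Cry1 had -1.50 and -1.37 there, and Bhlhe41 1.30. Rora and Usp2 had transfected ratios of 1.60 and 2.29. Mock Per2m/m cells, compared with the same wild type array, had a ratio of 0.46 for Nr1d1, -0.97 for Dbp, -1.15 for Ciart, -0.74 for Per3 and 0.71 for Arntl. In that comparison 9.45% of all genes lay at least 2-fold apart, 4.69% higher and 4.76% lower. Of the 11 repressors 3 were at least 2-fold lower there and 1 higher, with 8 below 0.

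Promoter sequence of 4 clock genes is shown because these hold the perfect E-box CACGTG that CLOCK and BMAL1 bind, which is in capitals. RefSeq windows from 250 bases before to 50 after the start (GRCm38.p6) were searched for the letters CACGTG, which read the same on both strands. They stood in 5 of 9 repressor genes that have a window (55.6%), in 1 of 8 output factors (12.5%) and in 8.09% of 27025 genes. The stretches below run 5′ to 3′ on the strand of the gene, at chr3:95882242-95882369 (minus) for Ciart, chr11:69098758-69098813 (plus) for Per1, chr10:85185084-85185139 (minus) for Cry1 and chr15:81802521-81802576 (plus) for Tef.
Ciart: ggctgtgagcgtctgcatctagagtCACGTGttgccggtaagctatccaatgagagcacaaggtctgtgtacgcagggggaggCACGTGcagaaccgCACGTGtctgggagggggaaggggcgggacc
Per1: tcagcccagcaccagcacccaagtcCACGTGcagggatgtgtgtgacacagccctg
Cry1: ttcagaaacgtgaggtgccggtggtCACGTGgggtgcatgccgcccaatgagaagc
Tef: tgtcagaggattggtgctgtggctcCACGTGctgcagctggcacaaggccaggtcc
Ciart held 3 copies in this window and was at least 3.33-fold lower in Clk/Clk cells, whereas Per1, with 1 copy in its window, was on the higher side. Among all genes at least 2-fold lower the share with CACGTG was 10.8%, among those at least 2-fold higher 7.84%, and among all measured genes 10.9%.

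Genes induced by interferon were higher in Clk/Clk cells in nearly the whole list. Of 24 interferon-stimulated genes 23 were at least 2-fold higher and 0 lower, with a median ratio of 4.42 (4.09 to 4.60 over the scalings tried). On the wild type array 21 of the 24 were well above background and on the Clk/Clk array all 24, and their summed linear signal, in units of the 75th percentile, was 69.7 and 459.9. The exception was Ifi27, at 5.72 and 6.36, a 1.56-fold ratio, and this gene makes up most of the wild type sum. This list was fixed with earlier results of these data known, so its direction is a description.

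Promoter windows of 4 of these genes are shown, since they hold the interferon response element that STAT and IRF factors bind. The letters searched, on either strand, were GAAANNGAAA and its reverse complement TTTCNNTTTC, a motif chosen after the values were seen, and every match is in capitals. Overlapping matches are joined.
Ifit1: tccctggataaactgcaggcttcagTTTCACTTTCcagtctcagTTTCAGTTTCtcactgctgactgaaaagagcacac
Isg15: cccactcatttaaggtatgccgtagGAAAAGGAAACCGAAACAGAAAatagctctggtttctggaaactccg
Oas1a: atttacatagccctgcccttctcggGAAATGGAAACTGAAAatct
Gbp3: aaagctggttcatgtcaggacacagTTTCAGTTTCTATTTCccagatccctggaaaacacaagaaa
They lie at chr19:34640760-34640838 (plus), chr4:156200850-156200921 (minus), chr5:120907526-120907570 (minus) and chr3:142559974-142560039 (plus), in RefSeq windows of GRCm38.p6. The motif stood in 11 of the 17 interferon-stimulated genes with a window (64.7%), against 3.99% of all 27025 genes and 3.74% of the genes measured here. Among genes at least 2-fold higher in Clk/Clk cells it stood in 105 of 1263 (8.31%), and among those at least 2-fold lower in 48 of 1375 (3.49%). A match describes the letters and not a bound site.

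Oligoadenylate synthetases and IFIT proteins sense or bind viral RNA. Oas2 was not well above background in wild type cells and reached 2.28 in Clk/Clk cells, at least 227-fold higher. Oasl2 had levels of -3.44 and 4.27, 209-fold higher. Ifit1 stood at -2.99 and 3.32, Ifit3 at -1.99 and 3.49, and Oas1a at -0.71 and 5.18, ratios of 6.31, 5.47 and 5.89. Ifit2, of the same cluster as Ifit1, was only 3.21-fold higher. All 8 measured members of the OAS pathway list had a ratio above 0, and 6 were at least 2-fold higher. Oas1b was among the others, with a 1.40-fold ratio. This family list and the 5 others on interferons, signalling factors, sensors, GTPases and complement were drawn up after the values were seen.

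Other antiviral effectors were on the same side. Isg15, the ubiquitin-like modifier, had levels of 1.85 and 6.75, and Usp18, the protease that removes it and also dampens the receptor, of -1.25 and 4.35. Those are 29.8-fold and 48.5-fold. Bst2, which tethers budding viruses, stood at 1.78 and 6.22, Mx2, a dynamin-like GTPase, at -3.81 and 2.03, and Zbp1, a sensor of left-handed nucleic acid, at -4.25 and 2.33. Zbp1 was thereby 95.7-fold higher and Mx2 57.1-fold. Mx1 had no level well above background in wild type cells and only -3.41 in Clk/Clk cells, at least 5.12-fold. Its level on the mock Per2m/m array was higher, at -0.51.

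Guanylate-binding proteins and immunity-related GTPases attack the membranes around intracellular microbes. Of 16 measured members 15 were at least 2-fold higher and 0 lower, with a median of 3.87, or 3.43 with dim members at their bound. Tgtp2 had levels of -1.40 and 4.38 (54.9-fold), Gbp3 of -2.33 and 2.90 (37.7-fold) and Gbp6 of -4.62 and 0.36 (31.5-fold). The member under 2-fold was Gbp5, at -0.23 and 0.67.

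The ligands and receptors of the pathway did not follow their targets. Of 8 measured interferons and receptor genes 0 were 2-fold apart, and the median was -0.20. Ifna1, Ifna2 and Ifnl3 had low levels on both arrays, from -4.15 to -1.78, with ratios of -0.50 to -0.25. Ifnb1, the interferon that fibroblasts are known to make, was not well above background on any of the 6 arrays, and neither were Ifna4 and Ifng. The type I receptor genes Ifnar1 and Ifnar2 had ratios of -0.26 and 0.46, and the type II genes Ifngr1 and Ifngr2 of 0.32 and 0.17.

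Of 19 measured signalling factors 8 were at least 2-fold higher, and of 2 lower ones, Irf5 and Irf8, the latter had only a bound of 1.30-fold. Jak1, Jak2 and Tyk2, the receptor-bound kinases, had ratios of -0.46, 0.55 and -0.64. In contrast, Stat2 had levels of 0.85 and 4.75 (14.9-fold) and Irf9 of 0.91 and 3.25 (5.04-fold). Irf7, the master factor of type I interferon transcription, had levels of -3.68 and 1.09 (27.2-fold), while Irf3, which starts that response from a constant pool, had 3.90 and 3.64. Socs1 and Socs3, feedback inhibitors of JAK kinases, were 3.53-fold and 4.01-fold higher, and Irf1 4.55-fold. In transfected cells the ratio of Socs1 was -0.93, that of Socs3 -0.997 and that of Irf1 0.64, so both Socs genes were on the other side there.

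Sensors of foreign nucleic acid are themselves partly induced by interferon. Of 15 measured sensors and adaptors 7 were at least 2-fold higher and 0 lower. The RNA helicases Ddx58 (RIG-I), Ifih1 (MDA5) and Dhx58 (LGP2) were 4.56-fold, 7.95-fold and 11.2-fold higher. The kinase Eif2ak2 (PKR) was 3.69-fold higher, Sting1, the adaptor of the DNA sensor, 2.56-fold, and the lipoprotein receptor Tlr2 5.74-fold. By contrast Mavs, the adaptor of the RNA helicases, had a ratio of -0.57, Cgas 0.21 and Tlr3 0.21.

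MHC class I genes load and display peptides to T cells, and most of them were higher in Clk/Clk cells. Of 13 genes 8 were at least 2-fold higher and 0 lower, with a median of 1.31 (0.99 to 1.43 over the scalings tried). The immunoproteasome subunits Psmb8 and Psmb9, which replace housekeeping subunits under interferon, had levels of -2.67 and 1.26 and of -3.93 and -0.53, or 15.3-fold and 10.5-fold. Psmb10, the other such subunit, was 2.36-fold higher. Nlrc5, the transactivator of class I genes, was 5.31-fold higher at -4.38 and -1.97. The heavy chain H2-K1 had levels of 4.14 and 5.63 (2.81-fold), its relative H2-D1 of 4.94 and 5.39 (1.37-fold), and the light chain B2m of 6.20 and 7.19 (1.99-fold). Tap2, a subunit of the peptide transporter, was alone below 0, with a ratio of -0.29.

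**Figure D3:**
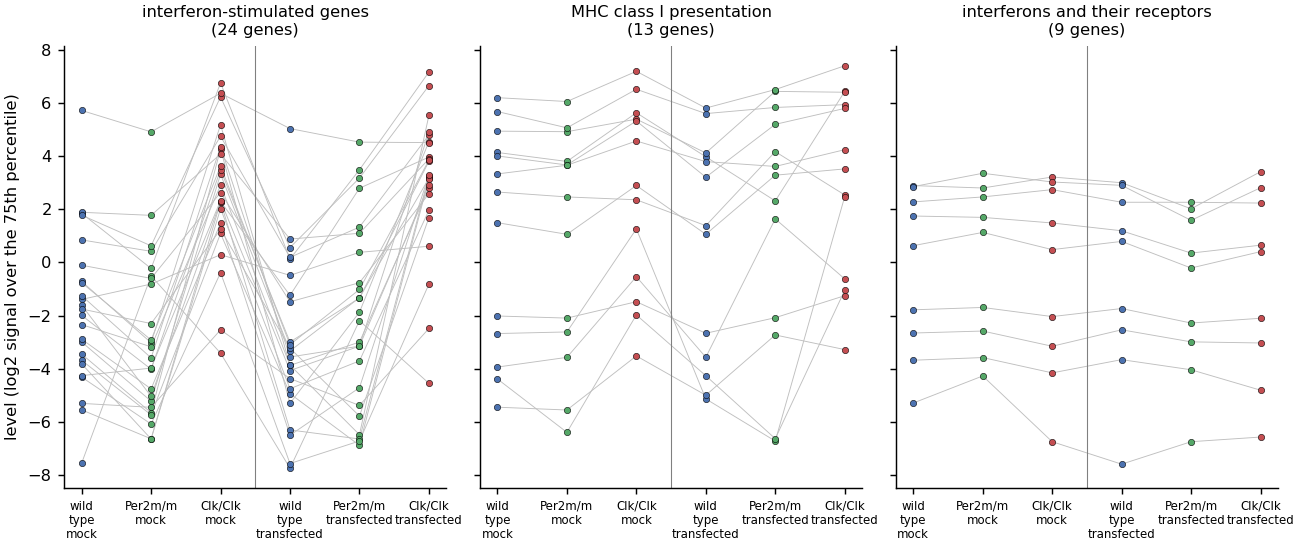
Levels (vertical axis, log2 signal over the 75th percentile) of interferon-stimulated genes, MHC class I genes and interferons with their receptors on all 6 arrays, 1 point a gene, joined by grey lines, with the mock arrays left of the vertical line. Interferon-stimulated genes have a median level of 2.77 and 3.27 on the Clk/Clk arrays against -3.44 to -1.87 on the other 4, while the ligands and receptors keep similar levels on most arrays.

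The median level of the 24 interferon-stimulated genes was -1.87 on the wild type and 2.77 on the Clk/Clk mock array, -3.38 on the mock Per2m/m array, and -3.44, 3.27 and -2.03 on the transfected wild type, Clk/Clk and Per2m/m arrays. Both Clk/Clk arrays were thus high and all others low. For 20 of the 24 genes both Clk/Clk arrays lay above all 4 others, which held for 12.8% of all genes, and for 8 of 13 MHC class I genes. In the transfected pair 22 of 23 measured interferon-stimulated genes were at least 2-fold higher, with a median of 6.71, where 14.7% of all genes were so. Against the same wild type mock array, the mock Per2m/m array had a median of -1.82 for this list, or -1.17 with dim members at their bound.

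Secreted inflammatory factors were higher in most but not all cases. Of 24 measured 16 were at least 2-fold higher and 4 lower, with a median of 2.08 (1.73 to 2.21 over the scalings tried). The chemokine Cxcl10, which draws activated T cells and is induced by interferon, had levels of -3.35 and 3.89 (152-fold). Neutrophil-attracting Cxcl5 and Cxcl1 were 67.8-fold and 28.5-fold higher, from 0.04 to 6.12 and from -0.77 to 4.07. The cytokine genes Il6 and Ccl2 were 4.32-fold and 4.07-fold higher, and Csf2 (GM-CSF) was well above background only in Clk/Clk cells, at least 42.7-fold. Lower were Cxcl14, by at least 84.6-fold from 1.78, and Il11, Csf1 and Ptgs2 (cyclooxygenase 2), by 5.95-fold, 5.46-fold and 5.38-fold. Csf1, the growth factor of macrophages, remained at a level of 4.90.

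Complement and acute phase genes were higher as a group, with 13 of 15 measured at least 2-fold higher, 0 lower and a median of 3.31. Saa3, a serum amyloid made by stimulated fibroblasts and macrophages, held the largest ratio of all genes: it was not well above background in wild type cells and stood at 6.93 in Clk/Clk cells, at least 3881-fold. Saa1 had levels of -0.90 and 4.64 (46.6-fold). C1s1, a protease of the first complement component, had -1.40 and 5.07 (88.8-fold), C3, the central component, -0.97 and 4.41 (41.4-fold), and Cfb, which forms the alternative convertase, -4.75 and 0.67 (42.6-fold). Transfected cells had Saa3 (at least 3623-fold), C1s1 (5.35) and C3 (6.12) on the same side.

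Markers of macrophages were on the lower side more often than on the higher one. Of 17 measured 8 were at least 2-fold lower, 7 of them also by their bound, and 2 higher, with a median of -0.97 (-1.30 to -0.55 over the scalings tried). The count well above background was 16 of 19 kept genes on the wild type, 10 on the Clk/Clk and 19 on the mock Per2m/m array, and their summed signal 47.9, 61.3 and 59.0. In the transfected pair 4 of 10 measured markers were at least 2-fold higher and 1 lower, with a median of 0.19. Itgam alone stood at 5.22 and 5.77, which makes up most of those sums. Lyz1 and Lyz2 (lysozymes), Tyrobp (a myeloid adaptor) and Ctss (a lysosomal protease) had wild type levels of 0.93, -0.77, -1.59 and -1.04. In Clk/Clk cells Lyz1 was at -4.12 and the other 3 were not well above background, nor were C1qa, C1qc, Cx3cr1 and Adgre1. Fewer cells of a type and less RNA per cell cannot be told apart in such bulk samples. The part of these cells in the other differences was not tested.

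Sex-linked genes also differed. Xist, the RNA that coats the inactive X chromosome, had a level of -1.03 in wild type cells and was not well above background in Clk/Clk cells, at least 12.1-fold lower. The Y-linked genes Ddx3y (1.40 and 2.40) and Eif2s3y (0.87 and 0.95) were well above background on both arrays. Transfected arrays of both genotypes showed the same for Xist, at -0.95 in wild type and not well above background in Clk/Clk cells. Its part in the other differences was not tested.

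All 16 fibroblast markers were well above background on both arrays, as the label requires, but with different balance. Pdgfra, the PDGF receptor of mesenchymal progenitors, had levels of -0.08 and 4.36 (21.7-fold higher), and Dcn (decorin) of 4.42 and 7.63 (9.28-fold). Twist2 and Prrx1, mesenchymal transcription factors, were 6.62-fold and 2.34-fold higher, and Lum (lumican) 2.65-fold. On the other side, Col3a1 was 2.58-fold lower and the intermediate filament gene Vim 2.20-fold, at 8.28 and 7.14. The list median was -0.02, and in mock Per2m/m cells Pdgfra and Twist2 differed from the same wild type array by 0.07 and 0.02. Among other cell types, the mesothelial genes Bnc1 (55.1-fold), Msln (23.7-fold) and Wt1 (4.73-fold) were higher in Clk/Clk cells, the 3 of 8 markers of that list that were measured. Msln was also 4.98-fold higher on the mock Per2m/m array than on the same wild type array, and its transfected ratio was -0.10. Wt1 had a Per2m/m ratio of 0.34 and Bnc1 was at least 1.72-fold lower there. In the transfected pair Bnc1 had 3.21 and Wt1 was at least 15.1-fold higher. In mock Clk/Clk cells epithelial markers had 1 of 9 higher and 1 lower, with 7 above 0 and a median of 0.40. The higher one was Cldn3, a tight junction claudin, by at least 17.9-fold at -1.60, and the lower one the keratin Krt19, by 5.41-fold. Endothelial markers had 0 of 7 higher and 3 lower, 2 of them also by their bound. Neural and glial markers had 1 of 11 higher and 3 lower, among them Stmn2 by at least 30.5-fold, and skeletal muscle markers 2 of 8 higher and 3 lower.

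Collagens, the main fibres of the matrix, were lower in Clk/Clk cells. Of 19 measured 10 were at least 2-fold lower and 1 higher, with a median of -1.17 (-1.49 to -1.04 over the scalings tried), and all 19 were well above background on both arrays. Col7a1, the anchoring fibril collagen, had levels of 7.03 and 1.65 (41.6-fold lower). Col5a3, a chain of a fibril-nucleating collagen, had 4.10 and 0.23 (14.6-fold lower), and Col6a3 6.42 and 3.07 (10.2-fold lower), whereas Col6a1, its partner in the same trimer, was 2.01-fold higher. The basement membrane chains Col4a1 and Col4a2 were 4.29-fold and 3.10-fold lower. The bulk collagen genes Col1a1 and Col1a2 differed less, by -0.73 and -0.48 from levels of 7.86 and 9.40. On the transfected arrays, where 12.2% of all genes were so, 7 of 19 were at least 2-fold lower, and 3 were higher, with a median of -0.62, and Col7a1, Col5a3 and Col6a3 had -2.95, -1.10 and -2.57. Mock Per2m/m cells, set against the same wild type array, had 5 of 19 collagens at least 2-fold lower and 0 higher, with 16 below 0 and a median of -0.56.

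Of 25 measured glycoproteins and proteoglycans 10 were at least 2-fold lower and 3 higher, with a median of -0.81. On the transfected arrays 6 of 26 were higher and 5 lower, with a median of 0.32. Fmod, a small proteoglycan of tendon, was 35.1-fold lower at 1.39 and -3.74, and Aspn, a related gene, 16.6-fold at 0.59 and -3.46. Fbn1, the microfibril protein, was 5.18-fold lower and Lox, which cross-links collagen, 4.13-fold. Higher were decorin, lumican and Fbln1 (3.73-fold). Among 21 proteases and inhibitors 4 were higher and 4 lower, with a median of -0.34. The stromelysin Mmp3 and the gelatinase Mmp9 were 26.6-fold and 23.1-fold higher, from -2.11 to 2.63 and from -4.40 to 0.13. The collagenase Mmp13 was 16.7-fold lower. Mock Per2m/m cells, against the same wild type array, had 6 of 26 glycoproteins and proteoglycans at least 2-fold lower and 0 higher. Decorin and lumican, higher in Clk/Clk cells, were among the lower ones (-2.39 and -3.15). Fmod, Aspn and Mmp13 had -1.17, -1.06 and -3.08 there, and Fbn1 and Mmp3 -0.14 and 0.42.

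TGF-beta ligands and their targets were on the lower side as well. TGF-beta is the growth factor that drives matrix and contractile genes in fibroblasts. Of 17 genes 8 were at least 2-fold lower and 1 higher, with a median of -0.96 (-1.29 to -0.85 over the scalings tried). The ligands Tgfb2 and Tgfb3 had levels of 4.17 and 0.64 (11.6-fold lower) and of 6.60 and 3.27 (10.0-fold lower), and Tgfb1 a ratio of -0.87. The receptor genes Tgfbr1 and Tgfbr2 had ratios of 0.02 and 0.39. The co-receptor Tgfbr3 was 13.6-fold higher, at 0.04 and 3.81. Of the targets, Inhba (activin) was 10.2-fold lower, Smad7, the feedback inhibitor, 4.30-fold, and Ccn2 (CTGF) 3.12-fold. After transfection Inhba, Smad7 and Ccn2 had -0.14, -0.27 and 0.24, while Tgfb2 and Tgfb3 had -2.42 and -1.09. Of 17 members 5 were at least 2-fold lower there and 0 higher, with a median of -0.27.

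Smooth muscle contractile genes mark myofibroblasts. All 16 had a ratio below 0 and 8 were at least 2-fold lower, with a median of -0.90 (-1.23 to -0.75 over the scalings tried). The abundant genes Acta2, Tagln and Cnn1 differed little, with ratios of -0.56, -0.25 and -0.39. Larger ratios belonged to Myocd, the cofactor that switches the programme on, which was at least 4.68-fold lower from -2.40, to Myh11, the smooth muscle myosin, 9.27-fold at 0.52 and -2.70, and to Mylk, the kinase of its light chain, 4.86-fold at 0.65 and -1.63. A dimmer probe of Mylk gave a ratio of 0.98, in the opposite direction. On the transfected arrays the list had a median of 0.05, with 4 of 14 higher and 1 lower, so the shared direction was not present there.

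**Figure D4:**
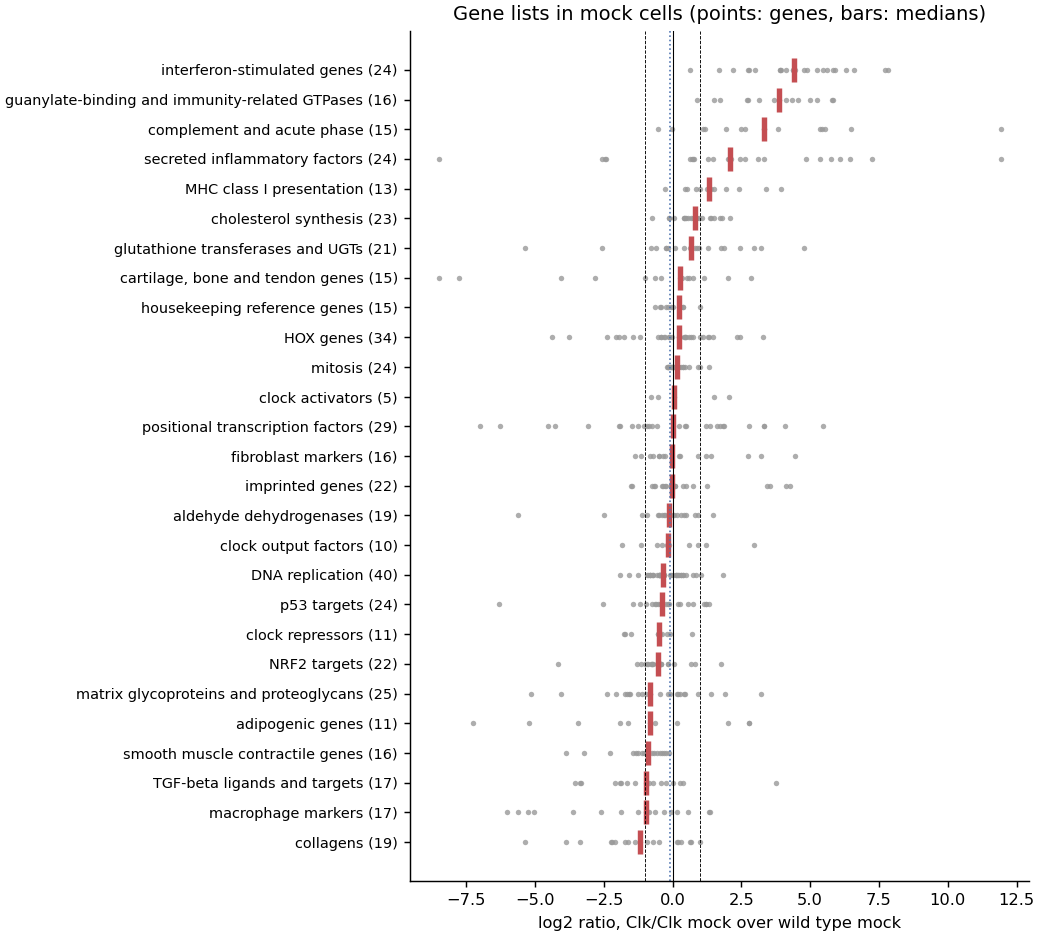
Log2 ratio (horizontal axis, Clk/Clk over wild type, mock arrays) of each measured gene of 27 lists (grey points; measured number in brackets) with the list median (red bar), in order of the medians. Dashed lines mark 2-fold and the blue dotted line the median of all genes, -0.10. Of these 27 lists, chosen from 51, the top 5 are of interferon, complement, inflammatory and MHC genes and the bottom one is the collagens. Among lists not drawn, those of mesothelial (4.57, 3 genes measured), OAS (3.26) and erythroid genes (1.71, 2 measured) had medians above the 1.31 of MHC class I.

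Genes of mesenchymal lineages showed single large differences without a shared direction. Of 11 adipogenic genes 3 were higher and 5 lower, 4 of them by their bound. Pparg, the master regulator of fat cells, had levels of 2.68 and -0.76 (10.8-fold lower), and Cebpa, its partner, was at least 26.1-fold lower from 0.08. Ebf2, a factor of brown fat precursors, was at least 30.7-fold lower. The early factors Cebpb and Cebpd, which are also induced by cytokines, were 4.01-fold and 6.81-fold higher, as was Lpl, the lipoprotein lipase, by 6.86-fold. Of the cartilage, bone and tendon genes 3 of 15 were higher and 5 lower. Tnmd (tenomodulin) and Scx (scleraxis), both of tendon, were at least 95.5-fold and 7.11-fold lower, and Col2a1, the cartilage collagen, at least 52.0-fold, from 1.08. Mkx, a further tendon factor, was 4.01-fold higher, at -2.19 and -0.19. The transfected ratios of Pparg, Cebpa, Scx and Mkx were -3.73, -3.53, -3.70 and -1.73.

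Genes that record position along the embryo differed too. Of 34 measured HOX genes 7 were at least 2-fold higher and 8 lower, with a median of 0.24 that turned to -0.09 under scaling to the median. Among the higher genes Hoxb7, Hoxb8 and Hoxb9 were 2.46-fold, 9.65-fold and 2.79-fold higher, and Hoxd3, Hoxd4 and Hoxd8 5.43-fold, 5.05-fold and 2.50-fold. Of the same D cluster, Hoxd10 was at least 2.87-fold lower. The posterior gene Hoxc11 was at least 9.74-fold lower, and Hoxa11 and Hoxc13 4.17-fold and 3.84-fold. Of 29 other positional transcription factors 11 were higher and 10 lower, 7 of them also by their bound. Meox1, a somite factor, was at least 35.4-fold higher at -0.62, and on the mock Per2m/m array, at -0.72, it was at least 32.9-fold higher than on the same wild type array. Its paralogue Meox2 was at least 16.5-fold lower in Clk/Clk cells, from -0.58, and had a level of 0.55 in mock Per2m/m cells. Six2, a factor of craniofacial and kidney mesenchyme, was at least 28.6-fold lower from 0.22. Imprinted genes had 5 of 22 higher and 2 lower. Dlk1, a Notch-like inhibitor of fat formation, stood at 3.13 and 7.42 (19.5-fold higher). Igf2 was at least 17.6-fold higher, Peg3 11.7-fold, and Slc38a4 had a ratio of 3.42. Mock Per2m/m cells, against the same wild type array, had 6 of 22 imprinted genes higher and 0 lower. Dlk1, Peg3 and Slc38a4 had 1.44, 1.02 and 2.25 there. In the transfected pair Dlk1 and Slc38a4 had 0.11 and -0.24, while Igf2 and Peg3 were at least 26.4-fold and 45.9-fold higher.

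Signals of growth factors varied by gene. Of 24 WNT ligands, receptors and antagonists 5 were higher and 9 lower, with a median of -0.66. The secreted inhibitors Sfrp2, Sfrp1 and Frzb were 48.0-fold, 10.3-fold and at least 32.8-fold higher, while the ligands Wnt11, Wnt4 and Wnt5b were 5.98-fold, 4.48-fold and 4.43-fold lower. So were Rspo3 and Rspo2, which enhance WNT signals, by 7.13-fold and 6.39-fold. In the IGF system 3 of 12 were higher and 3 lower. The binding protein Igfbp3 was 8.46-fold higher and another, Igfbp4, 5.61-fold lower. Pappa, a protease of IGF binding proteins, was 10.2-fold lower. RAS-MAPK feedback genes had 2 of 15 higher and 5 lower, the phosphatases Dusp2, Dusp4 and Dusp5 at 12.8-fold, 5.98-fold and 4.17-fold lower.

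Proliferation genes differed little between the mock arrays. Of 24 mitosis genes 1 was at least 2-fold higher (Cenpa, a centromere histone, 2.53-fold) and 0 lower, with a median of 0.17 that turned to -0.15 under scaling to the median. Of 40 DNA replication genes 2 were higher and 3 lower, the largest being Ccne1 (cyclin E1), 3.71-fold lower. After transfection, by contrast, 15 of 25 mitosis genes were at least 2-fold lower, with a median of -1.19. Cdkn2a, the locus of p16 and ARF, had levels of 4.36 and 5.78 (2.68-fold higher) and Cdkn1b (p27) was 2.20-fold higher. Of 24 p53 targets 4 were higher and 4 lower. Mdm2 was 2.34-fold higher and Cdkn1a (p21) differed by -0.42. Perp, a p53 target in epithelial junctions, was at least 57.1-fold lower.

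Cholesterol synthesis was the metabolic list with the most uniform sign. Of 23 genes 20 had a ratio above 0, 7 were at least 2-fold higher and 0 lower, with a median of 0.80 (0.48 to 0.96 over the scalings tried). Acat2, which makes acetoacetyl-CoA, was 4.29-fold higher, Insig1, the sterol-sensing brake, 3.44-fold, and Cyp51, the lanosterol demethylase, 3.33-fold. The transfected pair did not repeat this, with 1 gene higher, 1 lower and a median of -0.52.

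NRF2 targets, which defend against oxidants and electrophiles, leaned the other way, with 18 of 22 below 0, 3 at least 2-fold lower and 1 higher, and a median of -0.54. Nqo1, the quinone reductase, had levels of 2.19 and -1.96 and was 17.8-fold lower. Hmox1 (haem oxygenase) was 2.44-fold lower and Gclm, a subunit of the glutathione-forming ligase, 2.20-fold, while Gstm1 was 3.36-fold higher. Among 19 aldehyde dehydrogenases, the family to which the title of the series points, 1 was higher and 3 lower. Aldh1a3, a retinaldehyde dehydrogenase, was at least 9.99-fold lower from -1.30, Aldh1b1 5.55-fold, and Aldh3a1 itself had levels of 1.81 and 0.89, a ratio of -0.91. Of 21 glutathione transferases and UGTs 7 were higher and 2 lower, from Gstt1 (27.8-fold higher) to Gsta2 (at least 20.2-fold lower). A dimmer probe of Gstt1 gave a ratio of only 0.77 against 4.79. Efflux transporters had 2 of 7 lower, Abcc1 by 2.16-fold and Abcc5 by 2.10-fold. Glycolysis (3 higher and 2 lower of 18), heat shock proteins (0 and 2 of 14) and immediate-early factors (3 and 3 of 21, 2 of the latter by their bound) had medians of -0.04, -0.18 and -0.26. Of 15 housekeeping reference genes 0 were 2-fold apart, with a median of 0.25 that turned to -0.08 under scaling to the median.

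Genes around Clock on chromosome 5, which can be inherited together with a mutant allele, were counted by the distance of their probes from the Clock probe. Whether they were in these cells is not stated. Within 5 Mb 43 genes were measured, 4 at least 2-fold higher and 6 lower, or 23.3%. The rest of chromosome 5 had 21.0% of 917 genes and all chromosomes 22.5%. Within 2 Mb 5 of 25 genes lay at least 2-fold apart, and within 10 Mb 26.7% of 60. The nearby genes included Pdgfra, Gabra4 (a GABA receptor subunit, 15.1-fold higher, at -4.22 and -0.30) and its neighbour Gabrb1 (3.12-fold higher), Lnx1, a ubiquitin ligase (3.10-fold higher), and, on the lower side, the kinase gene Tec (6.41-fold), Nipal1 (5.19-fold), Cracd (2.25-fold) and Nmu (at least 2.39-fold). Txk, the neighbour of Tec, was not well above background in Clk/Clk cells and has no bound.

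Over all genes, the genotype ratios of both pairs can be set side by side, since they share no array. Whether both arrays of a genotype came from the same culture is not stated, so genotype and culture cannot be told apart here either. At least 2-fold apart in both pairs were 1807 genes, and 1559 of these (86.3%) differed in the same direction, 959 higher and 600 lower. Those 1559 genes are 44.0% of the 2-fold genes of the mock pair and 37.5% of the 4159 of the transfected pair, in which 26.9% of genes were called. Opposite directions were seen for 248 genes, of which 176 were lower and 72 higher in mock Clk/Clk cells. Across genes well above background on the wild type and Clk/Clk mock arrays, the Clk/Clk mock and transfected arrays correlated with r of 0.983. Over the same genes the wild type mock array correlated with that of mock Per2m/m cells with 0.986. The transfected Per2m/m array stood apart there, with r of 0.831 to 0.880 to all others.

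**Figure D5:**
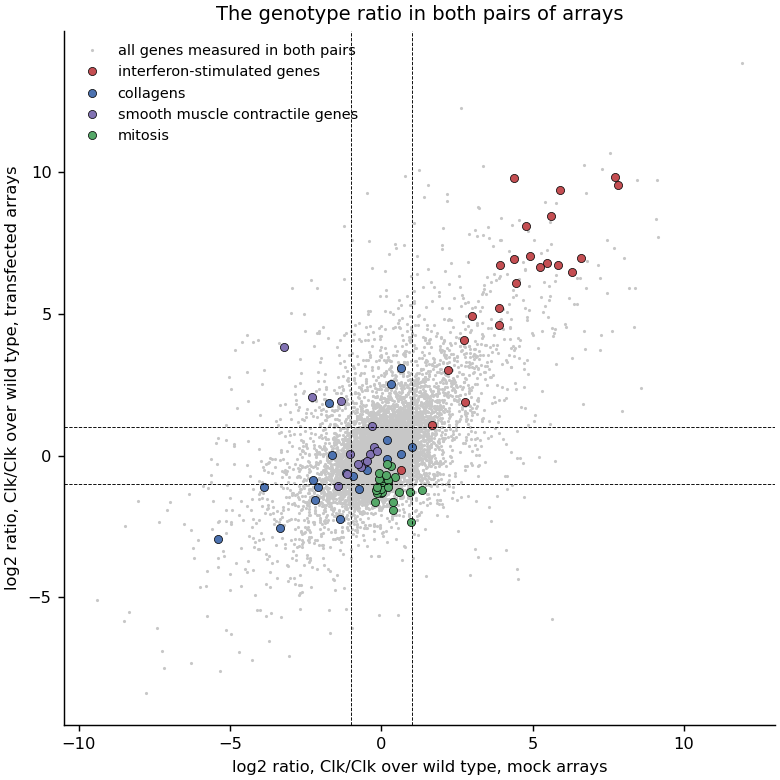
Log2 ratio of Clk/Clk over wild type on the transfected arrays (vertical axis) against the same on the mock arrays (horizontal axis), 1 point a gene, with dashed lines at 2-fold. Interferon-stimulated genes (red) lie in the upper right apart from Ifi27, contractile genes (purple) left of 0 with transfected ratios on both sides, and mitosis genes (green) near 0 on the mock axis and below 0 on the transfected axis.

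The genes furthest apart and well above background on both mock arrays were largely those already described. Beside the interferon genes, the highest held Rarres2 (chemerin, a chemoattractant), at -1.94 and 5.62 (189-fold), Serpina3g, a protease inhibitor of immune cells (175-fold), Casp4, the inflammatory caspase that senses lipopolysaccharide (149-fold), and Crabp1, a retinoic acid binding protein (73.7-fold). Outside the immune genes and below background in wild type cells were Dchs1, a giant cadherin (at least 401-fold higher), Gdf10, a bone morphogenetic protein relative (at least 184-fold), and Tac1, the precursor of substance P (at least 156-fold). After transfection Rarres2, Casp4 and Crabp1 had ratios of 10.66, 6.28 and 5.55.

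The lowest were led by Mgll, the monoglyceride lipase, at 4.08 and -2.14 (74.3-fold lower), the gap junction gene Gjb2 (66.6-fold), the platelet chemokine Ppbp (59.7-fold), and Gpx3, a secreted glutathione peroxidase (49.4-fold). Below background in Clk/Clk cells were Cthrc1, a secreted collagen-repeat protein induced in wounds, from 2.74 (at least 164-fold lower), and the surface glycoprotein Cd200, from 1.95 (at least 94.9-fold lower). Transfected ratios of Mgll, Gjb2 and Cthrc1 were -3.28, -2.99 and -5.10, while those of Ppbp and Gpx3 were -1.07 and -0.12.

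Some genes were read by several probes that gave unlike ratios, of which the brightest is used above. For some genes another probe fell on the other side of 2-fold. The ratio of Nlrc5 was 0.97 by its other probe, that of Wnt4 -0.88, that of Cdkn2a 0.45 and the one of Abcc5 nearest to 0 was -0.21, all under 2-fold. So were the clock genes Dbp (-0.97) and Arntl2 (as little as 0.95) by another probe. The converse held for Per1 (1.30), Noct (-1.32), Oas1b (up to 2.70) and Cdkn1a (up to 1.20, against -0.42 by the brightest probe). Other probes of Cxcl10, Tgtp2, Zbp1, Six2 and Csf1 gave smaller ratios of 3.83, 3.38, 5.32, -2.44 and as little as -1.40. For C3, Gbp6 and Igfbp3 they gave larger ones, of 8.19, 7.61 and 4.51. These ratios have the direction given above for each gene apart from Cdkn1a.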

How the data were processed

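Each group gave 1 Agilent array, hybridised with its Cy3-labelled RNA alone, and all 6 arrays lie on the same slide. The deposited scanner output gives an intensity per spot on a linear scale, made by Feature Extraction (10.7.1.1) using spatial and multiplicative detrending, per the file headers, while the submitters' processing notes name version 9.5.1.1. The authors' deposited table also holds intensity, with a median of 23.8 in every column and an r of at least 0.998 with the log2 signal of its own array. How it was scaled is not stated, and it served as an alternative.

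Each array had 59305 spots that were not controls, with 85 (wild type) and 93 (Clk/Clk) left out as outliers, 57.3% and 55% well above background and 0 saturated. The 75th percentile of the signal was 491.6 and 380.4. Levels are log2 of the processed signal minus that percentile, averaged over the spots of a probe. Of 55681 probes 27325 were named by accession, 3523 by symbol and 551 by synonym (gene table of GRCm38.p6), 479 kept the file's name, and 23803 unnamed probes were not used. A gene was represented by its brightest probe among those well above background on at least 1 array, which kept 16986 of 22780 genes. Of 5046 genes with several such probes, 20 had probes 2-fold apart in opposite directions, 0 of them selected by the rule for named genes. A bound uses the floor of the dim array, the lowest well-measured level there, -5.76 on the wild type and -4.62 on the Clk/Clk array, or the gene's own level if higher.

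No test was run, because each group has 1 array, and with so few arrays precision is low. Lists are described by counts and medians. The members, 45 lists and the rules were chosen with earlier results of these data known, and 6 further lists and the interferon motif after the values were seen. Named are all clock genes, up to 4 members a list at least 2-fold apart, the 12 highest and lowest ratios, the 10 highest and lowest bounds, the 12 highest and lowest genes over both pairs, and genes within 5 Mb of Clock. Other members are named as examples chosen after their values were seen, and some genes the rule selects are not reported here. Alternatives were scaling to the median, quantile normalization, normexp with an offset of 50, the authors' table, other background filters, the mean over probes and a 4-fold rule. The counting was tested on simulated data. Normexp and quantile normalization were run in limma 3.58.1 (R 4.3.3), everything else in Python 3.11.15 through numpy 2.4.6, pandas 2.3.3 and matplotlib 3.10.9.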

Additional observations from a re-analysis of the deposited data

Results flagged for a closer look

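For 9 named genes the mock and the transfected pair of arrays differed in opposite directions by at least 2-fold. In each case the difference between both ratios was not tested. The lysozyme gene Lyz1, from the list of macrophage markers, had a ratio of -5.04 on the mock and 2.76 on the transfected arrays (difference -7.81). Myh11, smooth muscle myosin, had -3.21 and 3.81 (-7.03), and Mylk, the kinase of myosin light chain, -2.28 and 2.07 (-4.35). For these 3 genes the transfected wild type signal was not well above background, so that the transfected difference has a bound of 4.11-fold, 11.95-fold and 3.44-fold. The matrix proteoglycan gene Fmod had -5.13 and 1.07 (-6.20), and the collagenase gene Mmp13 -4.06 and 4.08 (-8.14). Pappa, a protease of IGF binding proteins, had -3.35 and 1.78 (-5.13), and Flt1, a VEGF receptor, -1.10 and 2.73 (-3.83). The opposite order was seen for Epor, the erythropoietin receptor gene, with 2.49 and -1.56 (4.05), and for the centromere histone gene Cenpa, with 1.34 and -1.22 (2.56).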

How the results depend on the processing

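No paired analysis was possible because each group has 1 array and the labels give no replicate numbers, and for the same reason no array could be left out. Scaling to the array median moved the median ratio of all genes from -0.10 to -0.42 and the 2-fold counts to 1244 higher and 3134 lower, so that 28.4% of the 2-fold genes were higher in place of 48.8%. Genes in the same direction in both pairs then numbered 2347. With normexp and quantile normalization 1987 genes were 2-fold apart (956 higher, 1031 lower), 898 in both pairs and 803 in the same direction. Requiring both arrays well above background left 1207 lower genes, 1168 in both pairs and 1012 in the same direction. At 4-fold these counts were 1373, 700, 673, 620 and 570. Quantile normalization (3703), the authors' table (3722), no background filter (3848) and the mean over probes (3532) stayed within 1.5 times of 3544. Of 217 named genes with a ratio, 0 of the 200 at least 2-fold apart changed direction under the other scalings or the mean over probes. Neither did any of the 9 list medians at least 2-fold from 0, whereas 9 of 51 list medians turned sign over the scalings. Background filters and the 4-fold rule do not alter a gene's ratio. Scaling to the median shifts all ratios equally, by less than 2-fold, so it could not turn a 2-fold ratio. Relative to the median of all genes, the interferon-stimulated median lay at 4.19 to 4.72, that of collagens at -1.07 to -0.97 and that of clock repressors at -0.66 to -0.20. Genes near background are limited to bounds.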

Other observations

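Several genes best known from epidermis and other lining epithelia stood among the lowest ratios, although no list of such genes was drawn up and they are given as single values. Anxa8, an annexin of stratified epithelia, had levels of 5.53 and -0.03 (47.0-fold lower in Clk/Clk cells). Crct1, a gene of the cornified envelope cluster, had 3.29 and -2.15 (43.4-fold lower). Sprr2k, a small proline-rich protein of the same cluster, was at least 66.7-fold lower from 1.44, and Krt20, a keratin of gut and bladder, at least 64.5-fold from 1.39. Pkp1, a plakophilin of desmosomes, was at least 8.18-fold lower from -1.59. The general epithelial keratins Krt5, Krt14 and Krt18 were not, with ratios of 0.40, 0.52 and 0.07, although another probe of Krt5 gave 2.09. On the transfected arrays Pkp1 was at least 17.4-fold lower, and Crct1 and Anxa8 had -0.30 and -1.59.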
